A study of Mus musculus with 8 samples.

Results

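The receptor gene Notch1, the ligand genes Dll1, Dll3, Dll4 and Jag1, the Notch target genes Hes1 and Hes5 and the proneural genes Neurog1 and Neurog2 were followed in mouse embryonic stem cell cultures that were turning into spinal motor neurons. They are 9 of the 24633 genes tested, chosen by symbol, and all 9 had a probe on the array. RNA was measured on 8 arrays of 1 colour. The cells were of an Hb9-GFP line, whose fluorescent protein marks cells that use a motor neuron promoter. Litchi knockout cultures on day 9, control cultures on day 9, Litchi knockout cultures on day 7 and control cultures on day 7 had 2 arrays each. All cultures came from male cells, received retinoic acid and Sonic hedgehog (RA/Shh) between day 2 and day 5, were dissociated on day 5 and were then kept in GDNF until they were sampled, per the labels' protocols. The labels give neither the number of knockout clones nor whether replicates were separate cultures, so the p-values rest on array-to-array spread alone, some of which may be technical. The gene symbols and synonyms used to name probes did not include Litchi, and probes without a symbol were not searched for it. The loss of the targeted gene was therefore not checked here.

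Notch is a receptor that signals between touching cells. A ligand of the Delta or Jagged family on one cell leads to cleavage of Notch on its neighbour, and the freed intracellular part joins the DNA-binding protein RBPJ and switches on repressors such as Hes1 and Hes5. Proneural factors such as Neurog2 drive neuronal differentiation and switch on Dll1 and Dll3, while Hes proteins repress proneural genes. In the developing spinal cord this circuit keeps some cells as progenitors while others leave the cell cycle and become neurons.

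Values are log2 relative levels, the log2 processed signal of a probe minus the 75th percentile of its array, so that 0 marks the level of that percentile. They compare samples for 1 gene and not genes with each other. A change is a difference between group means on that scale, given ± its standard error (SE) from a limma fit of all 8 arrays. It is called where the adjusted p (Benjamini-Hochberg over all genes tested) is under 0.05. That percentile lay at 1088 to 1691 intensity units on replicate 1 arrays and at 649 to 854.5 on replicate 2 arrays, and 55.9% to 67.9% of the spots on an array stood well above background. Across genes, Pearson's r was 0.989 to 0.994 within groups and 0.962 to 0.988 between groups. In bulk samples such as these, fewer cells of a type and less RNA per cell cannot be told apart.

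On day 9, knockout cultures held more Hes5 and Dll3 RNA than control cultures. Hes5, a main Notch target of neural progenitors, was 3.62-fold higher (log2 change 1.85 ± 0.34, adjusted p = 0.0357, n = 2 arrays per group), and Dll3, a divergent Delta family member of early neurons, was 1.90-fold higher (0.93 ± 0.16, adjusted p = 0.0334). These 2 were the genes called among the 9, both higher, against 5.46% of all genes called in either direction, 1.5% called higher and 3.96% called lower. Higher genes made up 27.5% of all calls, and 65.1% where arrays were scaled to their median instead. At an unadjusted p under 0.05, 5 of the 9 were higher and 0 lower, where 25.7% of all genes passed. The arrays of the 2 genotypes did not overlap for 6 genes that were higher and 1 that was lower, against 59.7% of all genes without overlap in either direction. Of the 9 changes, 8 were above 0 and the median was 0.76, where the median of all genes tested was -0.02. On day 7, limma called 0 of the 9, while 2 were higher and 1 lower at an unadjusted p under 0.05, and the median change was 0.20 against -0.05 for all genes. Among all genes the day 7 calls came to 0.215%, with 0.0974% above and 0.118% below control, and 18.9% passed without adjustment. Genotypes did not overlap on day 7 for 3 of the 9 that were higher and 2 that were lower, against 48.3% of all genes.

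**Figure D1:**
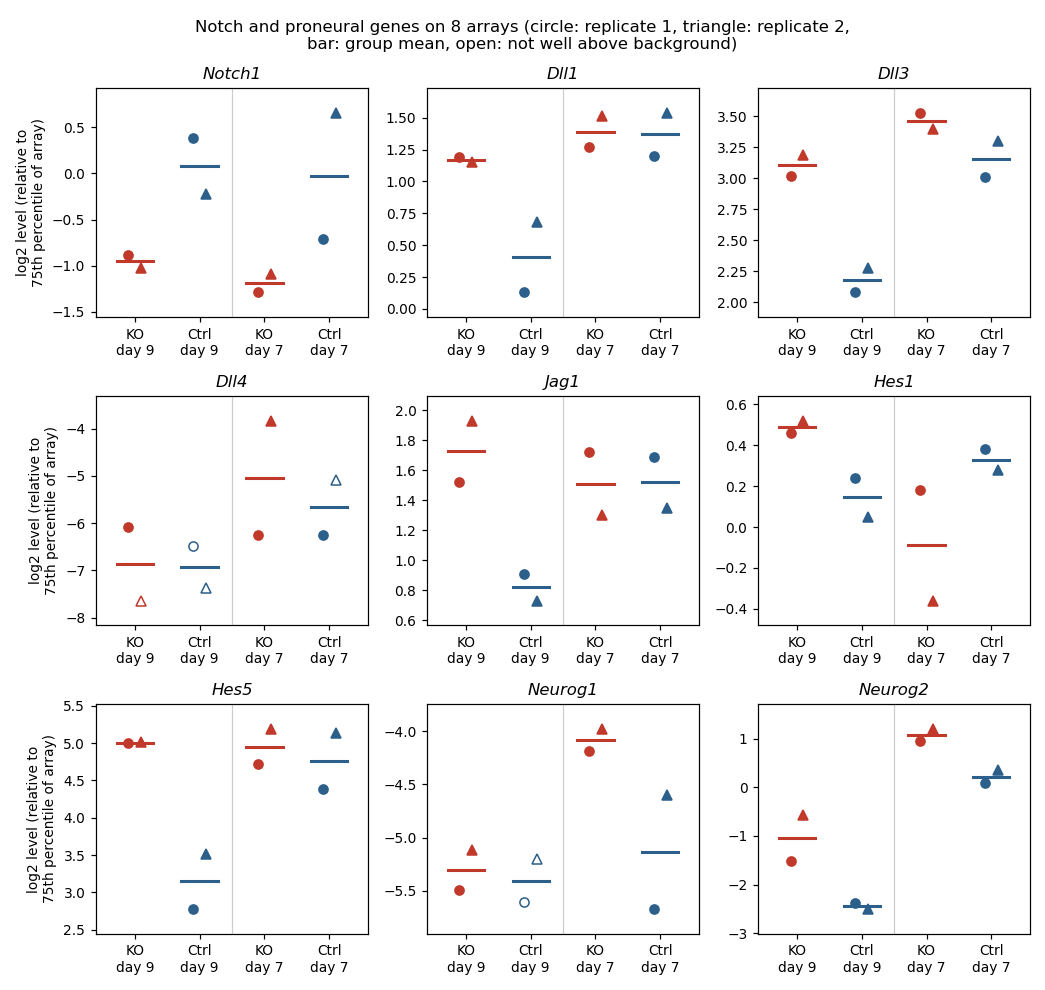
Log2 relative level (vertical axis, relative to the 75th percentile of each array) of the 9 genes in Litchi knockout (KO) and control (Ctrl) cultures on day 9 and day 7. Circles are replicate 1, triangles replicate 2, bars group means, and open symbols probes not well above background. Hes5, Dll3, Dll1 and Jag1 have control day 9 as the lowest group, Neurog2 is lower on day 9 than on day 7 in both genotypes, and the panel axes differ.

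The promoters of Hes5, Dll3, Dll1, Jag1 and Neurog2 are shown because these are the 5 genes that were higher in knockout cultures on day 9 at an unadjusted p under 0.05. Each runs from 250 bases before the annotated start to 50 bases after it (RefSeq, GRCm38.p6), and 8 of the 9 genes had an entry. Capitals mark the RBPJ core site GTGGGAA on either strand and the E-box CAGCTG, a palindrome that proneural factors bind.
Hes5: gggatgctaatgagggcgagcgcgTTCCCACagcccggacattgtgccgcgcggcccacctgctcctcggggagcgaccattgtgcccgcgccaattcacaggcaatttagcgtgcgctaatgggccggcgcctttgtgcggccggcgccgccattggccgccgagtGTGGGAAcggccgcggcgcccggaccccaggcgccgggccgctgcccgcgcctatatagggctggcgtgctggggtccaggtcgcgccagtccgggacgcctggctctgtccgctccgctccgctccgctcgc
Dll3: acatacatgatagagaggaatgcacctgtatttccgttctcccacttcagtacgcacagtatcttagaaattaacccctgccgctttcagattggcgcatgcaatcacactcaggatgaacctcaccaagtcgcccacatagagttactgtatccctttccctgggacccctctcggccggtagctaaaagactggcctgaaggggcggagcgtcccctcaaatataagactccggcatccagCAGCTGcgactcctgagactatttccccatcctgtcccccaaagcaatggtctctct
Dll1: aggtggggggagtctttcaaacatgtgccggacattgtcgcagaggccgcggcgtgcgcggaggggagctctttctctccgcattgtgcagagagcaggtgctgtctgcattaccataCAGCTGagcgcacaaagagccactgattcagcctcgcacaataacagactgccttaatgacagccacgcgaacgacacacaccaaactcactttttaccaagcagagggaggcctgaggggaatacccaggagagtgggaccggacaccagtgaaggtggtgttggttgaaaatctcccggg
Jag1: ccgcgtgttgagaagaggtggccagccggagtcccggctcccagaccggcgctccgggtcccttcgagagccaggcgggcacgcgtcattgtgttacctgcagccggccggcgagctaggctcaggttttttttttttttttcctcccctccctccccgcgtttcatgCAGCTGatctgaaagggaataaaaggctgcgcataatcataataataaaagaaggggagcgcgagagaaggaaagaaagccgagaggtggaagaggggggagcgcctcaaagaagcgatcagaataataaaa
Neurog2: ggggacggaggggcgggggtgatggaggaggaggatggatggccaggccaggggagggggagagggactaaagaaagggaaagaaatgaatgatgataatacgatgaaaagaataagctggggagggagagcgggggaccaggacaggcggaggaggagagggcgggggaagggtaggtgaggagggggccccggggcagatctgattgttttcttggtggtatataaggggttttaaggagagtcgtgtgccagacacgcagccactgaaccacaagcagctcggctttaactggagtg

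The Hes5 promoter, at chr4:154960673-154960972 on the plus strand, held 2 matches to the RBPJ site, starting at positions -226 and -83, counted from 0 at the first transcribed base. At least 1 match stood in 6.38% and at least 2 in 0.256% of the 32851 promoters searched. The Dll3 promoter, at chr7:28301736-28302035 on the minus strand, held CAGCTG at position -7. That E-box was found in 16.3% of all promoters. Dll1 had 2 annotated starts, and the promoter shown, at chr17:15376883-15377182 on the minus strand, held CAGCTG at position -132. The window of the other start held no match to any of the 5 motifs searched. The Jag1 promoter, at chr2:137116471-137116770 on the minus strand, held CAGCTG at position -82, and the Neurog2 promoter, at chr3:127632886-127633185 on the plus strand, held neither marked motif. The class C site CACGCG, bound by Hes proteins, was searched on both strands and stood in 9.27% of promoters, those shown for Dll1 and Jag1 among them. The Hes N-box CACNAG stood in 42.5%, including those shown for Dll1 and Neurog2. A further E-box, CAGATG, stood in 17.2% and in none of the promoters shown. Among the 8 genes with an entry, the RBPJ letters stood in the Hes5 window alone. The gene without an entry was Hes1, so its promoter was not searched. A match describes letters in a window and not a bound site.

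Notch1 encodes the receptor, and its 2 probes did not move together. The brighter probe, A_55_P2171897, had log2 relative levels of -0.88 and -1.03 in knockout day 9 cultures, against 0.38 and -0.22 in control day 9 cultures. On day 7 it had -1.29 and -1.09 in knockout cultures, against -0.71 and 0.66 in control cultures. Knockout arrays lay below control arrays on both days without overlap, and the control arrays of day 7 were far apart. The change was -1.04 ± 0.43 on day 9 (adjusted p = 0.196) and -1.17 ± 0.43 on day 7 (adjusted p = 0.226). With both days averaged, 4 arrays against 4, it was -1.10 ± 0.31 (adjusted p = 0.0585). None of these changes was called. The averaged change was called lower without control day 7 replicate 1 (-1.45, adjusted p = 0.0259) and with only probes above background on all arrays (0.0413).

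The second Notch1 probe, A_55_P2047168, was dim, with 85 to 87 intensity units on knockout day 9 arrays, 33 to 39 on control day 9 arrays and 30 to 60 on all day 7 arrays. Its log2 relative levels were -4.03 and -3.34 in knockout day 9 cultures, against -5.05 and -4.18 in control day 9 cultures, so that here the knockout lay higher. The change was 0.93 ± 0.36 on day 9 (adjusted p over probes = 0.183) and -0.01 ± 0.36 on day 7 (adjusted p over probes = 0.995). Both probes carry the same RefSeq accession on chromosome 2, and neither passed the threshold, so no direction is given for Notch1.

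**Figure D2:**
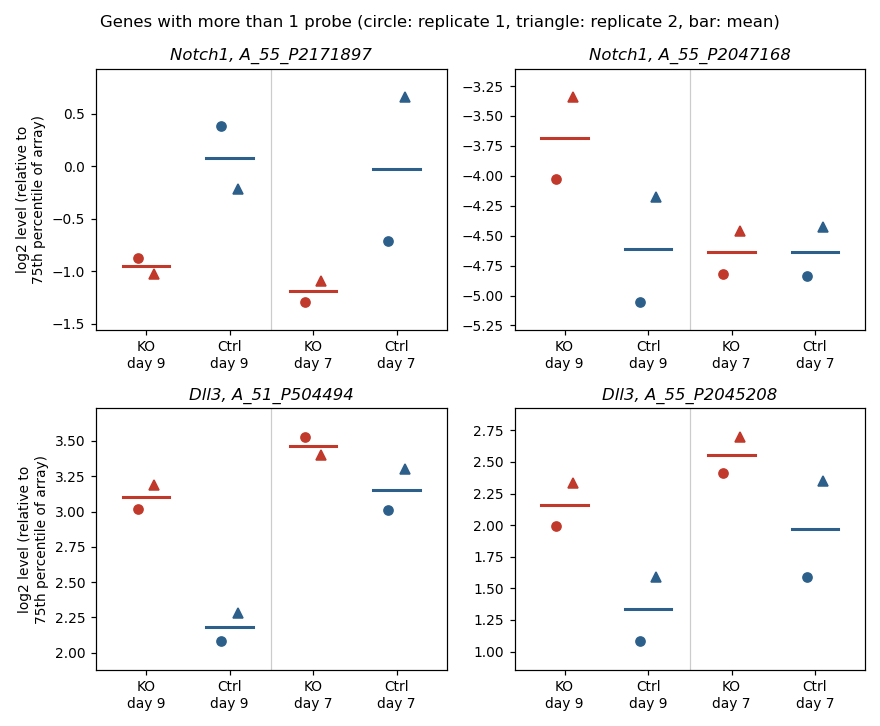
Log2 relative level (vertical axis) of each of the 2 probes of Notch1 and of Dll3 on the 8 arrays, in Litchi knockout (KO) and control (Ctrl) cultures. The Notch1 probes have opposite signs on day 9 (-1.04 and 0.93), while both Dll3 probes lie higher in knockout cultures (0.93 and 0.83).

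Dll3 was the ligand gene with a called difference. Its brighter probe had log2 relative levels of 3.02 and 3.19 in knockout day 9 cultures, against 2.08 and 2.28 in control day 9 cultures. Day 7 levels were 3.53 and 3.40 in knockout cultures, against 3.01 and 3.30 in control cultures. Control day 9 stood apart at the low end, and the arrays of the other 3 groups lay between 3.01 and 3.53. The second Dll3 probe ran the same way, with 1.99 and 2.33 in knockout day 9 cultures, against 1.08 and 1.59 in control day 9 cultures (change 0.83 ± 0.30, adjusted p over probes = 0.164). Without control day 9 replicate 1 the change of the brighter probe was 0.83 and the adjusted p was 0.152. The call was also lost without knockout day 9 replicate 1 (0.103), knockout day 9 replicate 2 (0.178), control day 9 replicate 2 (0.0684) and either knockout day 7 array (0.0562 each). It was lost as well with the mean of both probes (0.0706), with no filter on dim probes (0.131) and in a fit of the day 9 arrays alone (0.071).

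Dll1, the Delta ligand through which new neurons signal to their neighbours, had a like pattern below the threshold. It was read by 10 spots per array. Levels were 1.19 and 1.15 in knockout day 9 cultures, against 0.13 and 0.68 in control day 9 cultures. On day 7 they were 1.27 and 1.51 in knockout cultures, against 1.20 and 1.54 in control cultures. Only the control day 9 arrays were lower than the rest. The difference on day 9 was 0.76 ± 0.22 (adjusted p = 0.0985) and that on day 7 was 0.02 ± 0.22 (adjusted p = 0.974, 95% interval -0.51 to 0.55).

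Jag1, a Jagged family ligand, had 1.52 and 1.93 in knockout day 9 cultures, against 0.91 and 0.73 in control day 9 cultures. On day 7 it had 1.72 and 1.30 in knockout cultures, against 1.69 and 1.35 in control cultures. The 6 arrays outside control day 9 overlapped. The change of 0.90 ± 0.23 on day 9 missed the threshold (adjusted p = 0.0706), and on day 7 the change was -0.005 ± 0.23 (adjusted p = 0.995).

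Dll4, a Delta ligand best known from sprouting blood vessels, was close to background. It was well above background on 1 of 2 knockout day 9 arrays, 0 of 2 control day 9 arrays, 2 of 2 knockout day 7 arrays and 1 of 2 control day 7 arrays, and entered the test through the knockout day 7 group alone. Its signal was 21 and 4 intensity units in knockout day 9 cultures, against 12 and 4 in control day 9 cultures. Knockout day 7 arrays had 22 and 47 units, against 22 and 19 on control day 7 arrays. Groups overlapped on both days, and the 95% interval of the day 9 change ran from -2.08 to 2.23. Of the 12 endothelial markers, 9 were measured. Their summed relative level, which follows the brightest probes, was 9.51 to 10 in knockout day 9 and 9.71 to 10.9 in control day 9 cultures. On day 7 it was 10.2 to 11.4 in knockout and 9.60 to 11.8 in control cultures. Limma called 0 of these markers on either day. At an unadjusted p under 0.05, 0 were higher and 3 lower on day 9, and 1 higher and 3 lower on day 7. Among all genes 25.7% and 18.9% passed. With days averaged, 1 marker was called higher and 3 lower, where 14.8% of all genes were called. Tie1, Cldn5 and Erg did not pass the filter on dim probes.

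Hes5 showed the largest difference between genotypes of the 9 genes on day 9. Its processed signal was 45569 and 27628 intensity units in knockout day 9 cultures, against 7467 and 8107 in control day 9 cultures. On day 7 the signal was 44547 and 24418 in knockout cultures, against 34474 and 22653 in control cultures. As log2 relative levels these were 5.00 and 5.01 in knockout day 9, 2.78 and 3.52 in control day 9, 4.72 and 5.19 in knockout day 7 and 4.39 and 5.13 in control day 7 cultures. The 3 upper groups overlapped one another, and the control day 9 arrays lay below every other array. The 95% interval of the day 9 change ran from 1.04 to 2.66, and that of the day 7 change from -0.61 to 1.01 (change 0.20 ± 0.34, adjusted p = 0.800).

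The Hes5 call on day 9 rested on few arrays. Without control day 9 replicate 1 the change was 1.48 and the adjusted p was 0.145. Without knockout day 9 replicate 1 the adjusted p was 0.132 and without knockout day 9 replicate 2 it was 0.177. The call was also lost without either knockout day 7 array. It was kept without either control day 7 array and without control day 9 replicate 2. The change itself stayed between 1.48 and 2.23 in the 8 fits. The adjusted p was 0.133 with no filter on dim probes and 0.0658 in a fit of the day 9 arrays alone.

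Hes1, the other Hes repressor of the set, was not called on either day. Its levels were 0.46 and 0.52 in knockout day 9 cultures, against 0.24 and 0.05 in control day 9 cultures. On day 7 they were 0.18 and -0.36 in knockout cultures, against 0.38 and 0.28 in control cultures. The knockout arrays were the higher ones on day 9 and the lower ones on day 7. The changes were 0.35 ± 0.20 (adjusted p = 0.319) and -0.42 ± 0.20 (adjusted p = 0.317).

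Neurog2, the proneural factor of motor neuron progenitors, lay at the edge of the threshold on day 9, and was called there under quantile normalisation (adjusted p = 0.0497) and with only probes above background on all arrays (0.0347). Levels were -1.51 and -0.57 in knockout day 9 cultures, against -2.37 and -2.50 in control day 9 cultures. On day 7 they were 0.96 and 1.20 in knockout cultures, against 0.09 and 0.35 in control cultures. The genotypes did not overlap on either day, and every day 7 array lay above every day 9 array. The change was 1.40 ± 0.30 on day 9 (2.64-fold, adjusted p = 0.0515) and 0.86 ± 0.30 on day 7 (1.82-fold, adjusted p = 0.208). Averaged over both days it was 1.13 ± 0.21 (2.19-fold, adjusted p = 0.0236), and this change was called.

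Neurog1, its close relative, was dim on every array, with 19 to 93 intensity units. Levels were -5.49 and -5.12 in knockout day 9 cultures, while both control day 9 arrays, at -5.61 and -5.20, were not well above background. The day 9 change was 0.10 ± 0.36 (adjusted p = 0.887, 95% interval -0.76 to 0.95). The genotypes overlapped, so no direction is given for day 9. A floor was set at the higher, per array, of the control signal and the lowest signal well above background. The knockout mean was 1.03-fold that floor, which is a point estimate and no lower bound on the change. On day 7 Neurog1 had -4.19 and -3.98 in knockout cultures, against -5.67 and -4.60 in control cultures. Knockout arrays were the upper ones, and the change of 1.05 ± 0.36 was not called (adjusted p = 0.195).

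With the 2 days averaged, Hes5 (1.03 ± 0.24, adjusted p = 0.0382), Dll3 (0.62 ± 0.11, adjusted p = 0.0224) and Neurog2 (1.13 ± 0.21) were called, all higher in knockout cultures, where 14.8% of all genes were called, 5.48% were called higher and 33.7% had an unadjusted p under 0.05. Leaving out single arrays ended the Hes5 call in 6 of 8 fits (adjusted p up to 0.114), the Dll3 call in 6 of 8 (up to 0.0803) and the Neurog2 call in 6 of 8 (up to 0.0648), and none of the 3 was called with no filter on dim probes.

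The comparison of day 9 with day 7 asks how the genes moved as the cultures matured. In knockout cultures Neurog2 fell 4.34-fold (log2 change -2.12 ± 0.30, adjusted p = 0.0122), and it was the 1 gene of the 9 that was called, against 8.31% of all genes called, 4.14% higher and 4.17% lower. At an unadjusted p under 0.05, 1 was higher and 2 lower, where 26% of all genes passed. Days did not overlap for 2 of the 9 that were higher and 4 that were lower on day 9, against 58% of all genes. Hes5 changed by 0.05 ± 0.34 (adjusted p = 0.940, 95% interval -0.76 to 0.86). Dll3 changed by -0.36 ± 0.16 (adjusted p = 0.221), Dll1 by -0.22 ± 0.22 (adjusted p = 0.572) and Jag1 by 0.21 ± 0.23 (adjusted p = 0.590). Neurog1 changed by -1.22 ± 0.36 (adjusted p = 0.0902) and Hes1 by 0.58 ± 0.20 (adjusted p = 0.130). The median of the 9 was -0.22, against -0.12 for all genes.

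In control cultures Neurog2 fell 6.31-fold over the same days (log2 change -2.66 ± 0.30, adjusted p = 0.0101), Hes5 fell 3.05-fold (-1.61 ± 0.34, adjusted p = 0.0426) and Dll3 fell 1.97-fold (-0.97 ± 0.16, adjusted p = 0.0241). These were the 3 calls among the 9 genes, all lower on day 9, against 7.36% of all genes called, 4.11% higher and 3.26% lower. At an unadjusted p under 0.05, 5 of the 9 were lower and 0 higher, where 26.1% of all genes passed. For 7 of the 9 both day 9 arrays lay below both day 7 arrays, against 54.8% of all genes without overlap in either direction. Dll1 came next (-0.96 ± 0.22, adjusted p = 0.0521), followed by Jag1 (-0.70 ± 0.23, adjusted p = 0.116). The median of the 9 changes was -0.96, against -0.12 for all genes. The comparisons between days and those between genotypes use the same arrays, so the fall in control cultures and the day 9 difference share the control day 9 arrays.

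The call of Neurog2 in knockout cultures was lost without knockout day 7 replicate 2 (0.0756). In control cultures the call of Hes5 was lost without any 1 of the 8 arrays (adjusted p 0.0542 to 0.171, change -1.98 to -1.23). That of Dll3 was lost without control day 9 replicate 1 (0.0743), control day 9 replicate 2 (0.0912) or control day 7 replicate 2 (0.125). Neurog2 in control cultures was lost without control day 9 replicate 2 (0.0603) or control day 7 replicate 2 (0.0759). With no filter on dim probes the adjusted p of Neurog2 was 0.0557 in knockout and 0.0549 in control cultures. The mean of both Dll3 probes gave 0.0782 in control cultures.

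Whether the knockout effect differed between the days was tested as an interaction term. Hes5 had the largest such difference of the 9, 1.66 ± 0.48 (95% interval 0.51 to 2.81, unadjusted p = 0.0117, adjusted p = 0.777). By size Neurog1 came next at -0.955 ± 0.505 (adjusted p = 0.850), then Jag1 at 0.91 ± 0.32, Hes1 at 0.77 ± 0.28, Dll1 at 0.74 ± 0.31 and Dll3 at 0.62 ± 0.23, with adjusted p of 0.823 to 0.833. Limma called 0 of the 9, 4 were higher at an unadjusted p under 0.05, and 0.00406% of all genes were called and 6% had an unadjusted p under 0.05. A different effect on the 2 days was therefore not shown for any of the 9 genes.

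**Figure D3:**
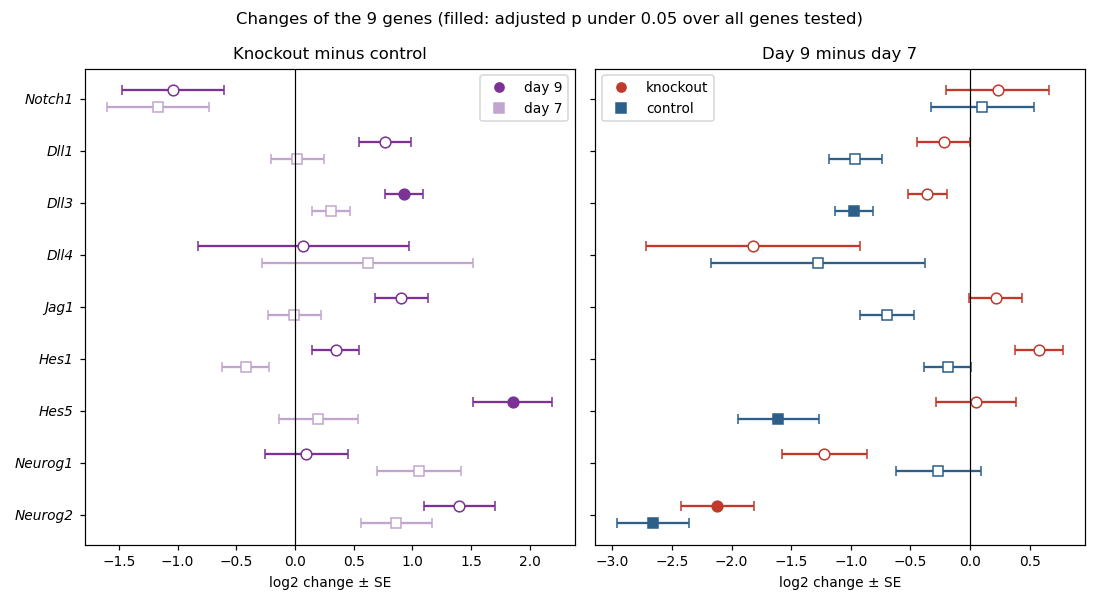
Log2 change ± SE (horizontal axis) of the 9 genes, knockout minus control on day 9 and day 7 (left panel) and day 9 minus day 7 in knockout and control cultures (right panel). Filled symbols have an adjusted p under 0.05 over all genes tested. Hes5 and Dll3 are filled on day 9 in the left panel, and Neurog2 for knockout and Hes5, Dll3 and Neurog2 for control cultures are filled in the right panel, where Hes5 in knockout cultures lies at 0.05.

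Of 15 further Hes, Hey and feedback targets, 12 were measured, and on day 9 the test called 3 higher and 0 lower in knockout cultures, with a list median of 0.27. For this and the following pathway lists, the shares of all genes called on day 9 were 1.5% higher and 3.96% lower. On day 7 the share called was 0.215%. Heyl, a Hairy-related repressor and Notch target, had -0.38 and -0.51 in knockout day 9 cultures, against -2.73 and -2.58 in control day 9 cultures (change 2.21 ± 0.13, adjusted p = 0.0056). On day 7 Heyl had 0.55 on both knockout arrays, against -0.70 and -0.58 on control arrays (1.19 ± 0.13, adjusted p = 0.0396), and it was the 1 gene of this list called on that day. Its day 9 call was lost only without knockout day 9 replicate 2 (adjusted p = 0.0615), and its day 7 call in 6 of 8 fits.

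Nrarp, a feedback inhibitor that Notch switches on, had 0.05 and 0.27 in knockout day 9 cultures, against -1.47 and -1.02 in control day 9 cultures (1.40 ± 0.24, adjusted p = 0.0326). On day 7 it had 0.08 and 0.32 in knockout cultures, against -0.10 and 0.43 in control cultures, which overlapped. Its call remained in 2 of 8 fits without 1 array. Id1, an inhibitor of basic helix-loop-helix (bHLH) factors that also responds to BMP, was 1.12 ± 0.23 higher on day 9 (adjusted p = 0.0469), a call that no fit without 1 array kept (adjusted p 0.0551 to 0.226). Hey2 was not called at 1.40 ± 0.33 (adjusted p = 0.0626).

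Of 13 further proneural and neuronal bHLH factors, 10 were measured, and 1 was called higher on day 9 and 0 lower. All 10 changes were above 0, where 47.9% of all genes were, and the median was 0.43, against -0.02 for all genes. On the control day 9 arrays, 9 and 8 of the 10 were well above background, so some of these signs rest on dim signals. On day 7 the same list had 5 of 10 above 0 and a median of 0.06, against 44.2% and -0.05 for all genes. Neurod1, which acts after the neurogenins, had -3.41 and -2.96 in knockout day 9 cultures, against -5.06 and -5.39 in control day 9 cultures, where 1 of 2 arrays was not well above background (2.04 ± 0.28, adjusted p = 0.0209). It kept its call in 4 of the 8 fits without 1 array.

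**Figure D4:**
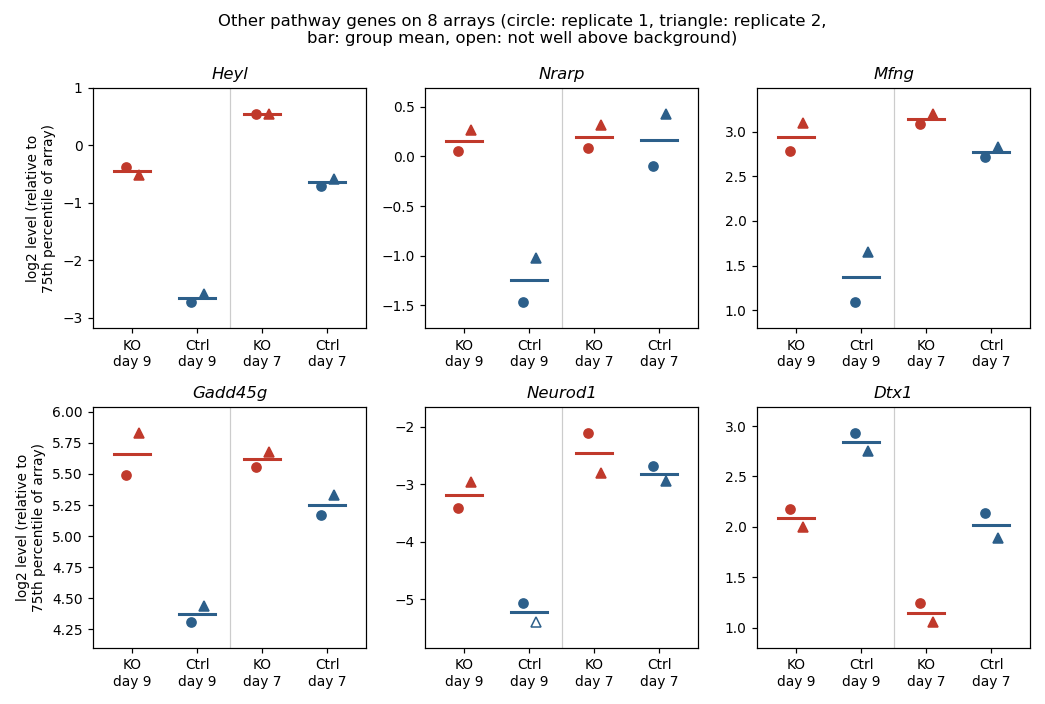
Log2 relative level (vertical axis) of the Notch targets Heyl and Nrarp, the glycosyltransferase gene Mfng, the growth arrest gene Gadd45g, the bHLH factor Neurod1 and the Notch regulator Dtx1 on the 8 arrays, in Litchi knockout (KO) and control (Ctrl) cultures. Control day 9 is the lowest group for the first 5 genes, while Dtx1 is lower in knockout cultures on both days.

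Genes that act downstream of proneural factors gave a mixed picture. All 16 were measured, with 2 called higher and 1 lower on day 9 and a median of 0.14. Gadd45g, a growth arrest gene of new neurons, had 5.49 and 5.83 in knockout day 9 cultures, against 4.31 and 4.44 in control day 9 cultures (1.29 ± 0.17, adjusted p = 0.0197). Ebf2, a factor of early neurons, was 2.01 ± 0.30 higher (adjusted p = 0.0238). Cdkn1c, an inhibitor of cyclin-dependent kinases, was lower on day 9 (-1.39 ± 0.24, adjusted p = 0.0326) and on day 7 (-2.16 ± 0.24, adjusted p = 0.0390). The calls of Gadd45g and Ebf2 remained in 5 of 8 fits each, those of Cdkn1c in 2 of 8 on either day.

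The receptors and ligands outside the 9 showed 0 calls among 8 measured genes on day 9, and 1 was lower at an unadjusted p under 0.05. That gene was Jag2, a Jagged ligand, with -2.82 and -2.28 in knockout day 9 cultures, against -1.64 and -1.78 in control day 9 cultures (-0.84 ± 0.22, adjusted p = 0.0785). Its change had the opposite sign to that of Jag1. Notch3 had a change of 0.25 ± 0.14 (adjusted p = 0.315). The list median was -0.10, and it was 0.11 where arrays were scaled to their median instead.

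Of 28 measured genes for Notch glycosylation, cleavage and trafficking, 1 was called higher and 1 lower on day 9, with a median of -0.07 (0.15 after scaling to the median). Mfng, a fringe glycosyltransferase that alters how Notch answers its ligands, had 2.78 and 3.10 in knockout day 9 cultures, against 1.09 and 1.65 in control day 9 cultures (1.57 ± 0.22, adjusted p = 0.0211). Dtx1, a Deltex ubiquitin ligase that regulates Notch, had 2.18 and 2.00 in knockout day 9 cultures, against 2.93 and 2.75 in control day 9 cultures (-0.75 ± 0.16, adjusted p = 0.0485). Dtx1 was lower on day 7 too, at -0.87 ± 0.16 without a call (adjusted p = 0.0864). On day 7 the test called 0 of the 8 receptors and ligands, 0 of these 28 genes, 0 of the 10 bHLH factors and 0 of the nuclear complex. Mfng kept its call in 5 and Dtx1 in 0 of the 8 fits. In the nuclear complex of 15 genes, 0 were called higher and 1 lower, the corepressor gene Tle2 (-1.14 ± 0.18, adjusted p = 0.0274), whose call remained in 4 of 8 fits.

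**Figure D5:**
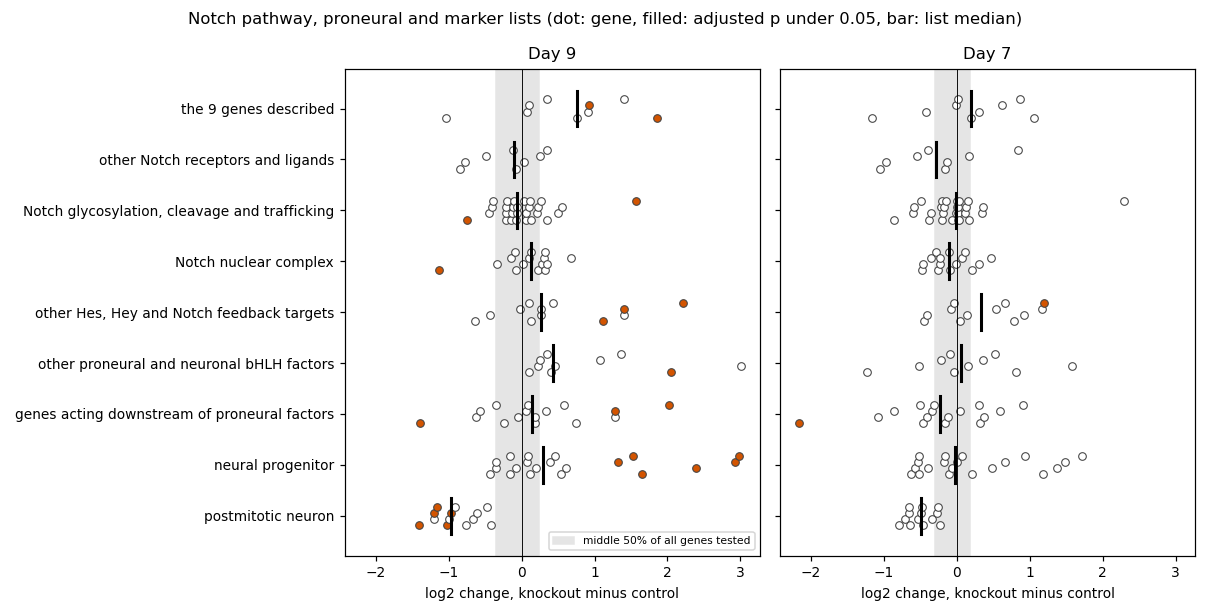
Log2 change, knockout minus control (horizontal axis), of each measured gene of the Notch pathway, proneural and marker lists on day 9 (left panel) and day 7 (right panel). Each dot is a gene, filled where the adjusted p is under 0.05, black bars are list medians and the grey band holds the middle 50% of all genes tested. The postmitotic neuron list has all 13 genes below 0 on both days, with a median of -0.96 on day 9.

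Between the days, in knockout cultures, 2 bHLH factors (Nhlh2 and Neurod2) and 2 downstream genes (Srrm4 and Elavl2) were called lower on day 9, and Cdkn1b was called higher. The target list there split, with Heyl, Id1, Id2, Id3 and Hes2 called lower and Hey1 and Id4 called higher. Notch2, Cntn6, Dtx1 and Maml2 of the other lists were called higher as well. Of all genes, 4.14% were called higher and 4.17% lower in knockout cultures. In control cultures, several of these genes were lower on day 9 than on day 7, as Hes5 and Dll3 were. There 3.26% of all genes were called lower and 4.11% higher. Heyl (-2.01 ± 0.13, adjusted p = 0.00606), Nrarp (-1.41 ± 0.24, adjusted p = 0.0258) and Id1 (-1.47 ± 0.23, adjusted p = 0.0214) fell among the targets, where 3 of 12 were called lower and 0 higher. Of the bHLH factors, 4 of 10 were called lower, namely Nhlh2, Neurod1, Neurod2 and Tcf12, with changes of -2.91 (Neurod2) to -0.76 (Tcf12). Of the downstream genes, 7 of 16 were called lower and 0 higher. Of the 28 glycosylation, cleavage and trafficking genes, 4 were called higher on day 9 (Dtx3l, Ncstn, Neurl1a and Dtx1, by 0.83 to 2.95) and 1 lower, Mfng (-1.41 ± 0.22, adjusted p = 0.0203). The receptor and ligand list had 1 call, Cntn6, higher, and the nuclear complex had Tle2 higher and Tle3 lower.

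Cell type markers also differed between genotypes. For the day 9 counts that follow, 1.5% of all genes were called higher and 3.96% lower, and 25.7% passed without adjustment. On day 9, 6 of 20 neural progenitor markers were called higher in knockout cultures and 0 lower. At an unadjusted p under 0.05, 7 were higher and 1 lower. Of the 20 changes, 14 were above 0, with a median of 0.29 and a range of -0.44 to 2.98. Olig2 lay near the top of that range, with -0.64 and 0.52 in knockout day 9 cultures, against -3.21 and -2.77 in control day 9 cultures (2.92 ± 0.37, adjusted p = 0.0197). Summed relative levels follow the brightest probes of a list and can miss changes of its dimmer members. For the progenitor list the sum was 438 and 525 on knockout day 9 arrays, against 459 and 522 on control day 9 arrays. Of 13 postmitotic neuron markers, 0 were called higher and 5 lower, and their summed level was 159 and 162 in knockout day 9, 357 and 288 in control day 9, 317 and 335 in knockout day 7 and 447 and 508 in control day 7 cultures. The 9 measured cell division markers had 0 calls and 6 higher at an unadjusted p under 0.05, with a summed level of 218 and 247 in knockout day 9 cultures, against 175 and 173 in control day 9 cultures. Of 9 mesenchymal markers, 3 were called higher on day 9, with summed levels of 181 and 156 in knockout day 9 cultures, against 119 and 116 in control day 9 cultures. Among 7 measured motor neuron markers 1 was called higher and 2 lower, and all 7 were well above background on all 8 arrays, with a summed level of 11.8 and 14.8 in knockout day 9, 22.0 and 14.6 in control day 9, 41.0 and 45.2 in knockout day 7 and 43.8 and 45.9 in control day 7 cultures. Of 7 pluripotent cell markers, 0 were called higher and 1 lower, with a summed level of 1.71 and 1.98 in knockout day 9 cultures, against 6.19 and 4.04 in control day 9 cultures. The 4 measured astrocyte markers and the 7 oligodendrocyte lineage markers had 0 calls, and of 3 measured microglia and leukocyte markers 1 was called lower. At an unadjusted p under 0.05 on day 9, 12 postmitotic neuron and 6 pluripotent cell markers were lower and 7 mesenchymal markers higher. With days averaged, 11 of 13 postmitotic neuron and 6 of 7 pluripotent cell markers were called lower. There 7 of 9 mesenchymal markers were called higher, and 6 progenitor markers were called higher and 1 lower. Of all genes, 14.8% were called with days averaged and 5.48% were called higher. On day 7 the marker lists had 0 calls, where 0.215% of all genes were called and 18.9% passed without adjustment. At an unadjusted p under 0.05 on day 7, 5 progenitor markers were higher and 4 lower. All 9 mesenchymal markers and 1 cell division marker were higher, while 7 postmitotic neuron and 5 pluripotent cell markers were lower. The summed mesenchymal level on day 7 was 95.2 and 73.8 in knockout cultures, against 52.0 and 37.9 in control cultures. That of the pluripotent cell markers was 3.08 and 2.54 in knockout day 7 cultures, against 6.06 and 4.55 in control day 7 cultures. These lists thus differed between genotypes on day 7 too. The part of these markers in the changes of Hes5, Dll3 and Neurog2 was not tested.

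The genes most like 4 of the 9 over the 8 arrays were sought by Pearson r among the 3284 other genes (3285 for Dll1) with a symbol and a standard deviation of at least 0.5 log2 units. These values describe 8 arrays in 4 groups and carry no p. Hes5 ran closest to Nrarp (r = 0.987) and Glra1 (0.984). Dll1 ran closest to St18 (0.982), Zar1 (0.971) and Nrarp (0.965). Neurog2 ran closest to Prodh (0.995), Cdca7 (0.993) and Cga (0.987), and the brighter Notch1 probe to Slc16a7 (0.997), Cftr (0.988) and Gabbr2 (0.984). Among the 9 themselves, Dll1 and Hes5 had r = 0.96, Dll3 and Neurog2 r = 0.91 and Hes1 and Hes5 r = 0.01. The brighter Notch1 probe and Jag1 had r = -0.61, and the second Notch1 probe was not compared.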

How the data were processed

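The 8 arrays were 1-colour Agilent SurePrint G3 mouse arrays, scanned on 1 slide, and per the submitters' processing notes spots were read in Feature Extraction (Agilent, 10.5.1). The processed signal is a background-subtracted spot intensity with no scaling between arrays, per the file headers. A second deposited table, used as an alternative, holds log2 values that are quantile-normalised as its columns show, with an unknown baseline offset.

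Of 62976 spots, 3671 control spots and those marked as outliers were left out. Spots of a probe were averaged as log2 signal minus the 75th percentile of the array. A probe was kept where some group had it well above background on both of its arrays, and the brightest kept probe stood for a gene. Names came from each probe's RefSeq accession through a RefSeq gene table on GRCm38.p6, and 26300 of 55681 probes had a symbol. Mnx1 and Dlk2 were not analysed here, and some genes that the lists or the naming rule hold are not reported here.

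The two-sided test was limma's moderated one (version 3.58.1, R 4.3.3), with 4 group means over all 8 arrays, 4 residual and 2.53 prior degrees of freedom. It was tested on simulated data first. The 2 arrays per group limit the precision. The members and lists were chosen with earlier results of these data known. Named were the 9 members, the called genes of each pathway list or else up to 4 with the lowest p, and the 3 genes most like Notch1, Dll1, Hes5 and Neurog2. Olig2 was named after its values were seen, as were the correlations among the 9. Alternatives were other scalings, normexp (offset 50, on the median signal, since the planned mean signal column was not used here), the deposited table, other filters and probe rules, a replicate block, only the arrays compared, and each array left out.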

Additional observations from a re-analysis of the deposited data

Results flagged for a closer look

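In 8 genes of the pathway lists the 2 knockout arrays lay above both control arrays on day 9 and below both on day 7. Genotypes did not overlap, in either direction, for 59.7% of all genes on day 9 and 48.3% on day 7. The share of all genes that turned direction in this way was not counted, so the 8 cannot be judged against it. For each of the 8, the difference between the 2 effects (day 9 minus day 7) was tested as an interaction term in limma. None passed after adjustment over all genes. The members include Hes1, a Notch target, with a difference of 0.77 (adjusted p = 0.826). Among the other genes it was 0.79 for the corepressor gene Tle3 (adjusted p = 0.823), 0.55 for the Notch target Hey1 (adjusted p = 0.797) and 0.54 for the bHLH inhibitor gene Id4 (adjusted p = 0.843). It was 0.65 for the neuronal zinc finger gene Myt1 (adjusted p = 0.826) and 0.60 for the cell cycle inhibitor gene Cdkn1b (adjusted p = 0.797). The other 2 were genes called in none of the comparisons, Aph1a of the gamma-secretase complex at 0.474 (adjusted p = 0.834) and the ubiquitin ligase gene Fbxw7 at 0.478 (adjusted p = 0.847). A sample far from its group could not be looked for with 2 arrays per group.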

How the results depend on the processing

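With 2 arrays per group, counts of calls moved with most choices, and the cause was not tested except where the setting itself changes the arrays or genes that enter. The counts given for the 6 comparisons were 1346 genes called between genotypes on day 9, 53 on day 7, 2047 between days in knockout cultures, 1814 between days in control cultures, 1 for the difference of effects and 3653 with days averaged. Leaving out 1 array, where the lone array left in a group is assumed to vary like the others, these became 7 to 804, 0 to 125, 438 to 1996, 8 to 1306, 0 to 1 and 450 to 2716, and among the 9 genes the calls became 0 to 2 on day 9, 0 to 2 between days in knockout and also in control cultures, and 0 to 3 with days averaged, where the 1 call without control day 7 replicate 1 was Notch1, lower. Changes that turned sign without 1 array were, between genotypes on day 9, Neurog1 (-0.108 to 0.303) and Dll4 (-0.703 to 0.845); on day 7, Dll1 (-0.147 to 0.189), Jag1 (-0.216 to 0.206), Hes5 (-0.17 to 0.565) and Dll4 (-0.584 to 1.827); with days averaged, Hes1 (-0.171 to 0.099) and Dll4 (-0.256 to 0.949); between days in control cultures, Notch1 (-0.581 to 0.79) and Neurog1 (-0.803 to 0.266), and in knockout cultures Hes5 (-0.187 to 0.286); and as a difference of effects, Dll4 (-1.756 to 0.656) and Notch1 (-0.559 to 0.813). Without a filter on dim probes, which adds genes to the test, limma called 1 gene on day 9, 0 on day 7, 480 between days in knockout and 75 in control cultures, 0 as a difference of effects and 220 with days averaged, and 0 of the 9 in each of these; the adjusted p on day 9 was 0.133 for Hes5 and 0.131 for Dll3. Fitting only the arrays compared gave 52 genes on day 9, 0 on day 7 and 182 between days in control cultures, and among the 9 it called 0 on day 9 (0.0658 for Hes5 and 0.071 for Dll3), 2 between days in knockout and 1 in control cultures. Normexp gave 322 genes on day 9, 21 on day 7, 871 between days in knockout and 682 in control cultures, 0 as a difference of effects and 1678 with days averaged, and it turned Dll4 (-0.246) and Neurog1 (-0.209) on day 9, Dll4 (0.008) and Neurog1 (0.105) between days in control cultures and Dll4 with days averaged (-0.029). Keeping probes above background on all arrays gave 184 genes on day 7 and 0 as a difference of effects. Scaling to the array median moved the median of all genes on day 9 from -0.022 to 0.188, called 5 of the 9 on day 9 (Dll1, Dll3, Jag1, Hes5 and Neurog2), gave 0.121 for Jag1 on day 7 and 0.133 for Hes1 with days averaged, and left 0 genes as a difference of effects. Jag1 on day 7 was 0.003 under quantile normalisation and 0.004 in the deposited table, each with 0 genes as a difference of effects. The share of calls that were higher on day 9 was 27.5%, against 65.1% with the median, 36.9% with quantile normalisation and 37.1% in the deposited table. On day 7 it was 45.3%, against 58.9% with the median, 52.4% with normexp and 55.6% with quantile normalisation or in the deposited table, and with days averaged 37%, against 71.5% with the median and 48.1% with quantile normalisation. Between days it was 49.9% in knockout and 55.8% in control cultures, against 66% and 67.8% with the median. The mean of a gene's probes called 1 of the 9 on day 9 (Hes5), as did the dimmest kept probe, a setting chosen after seeing the data, which turned Notch1 on day 9 (0.928) and with days averaged (0.46) and gave 0 genes as a difference of effects. Arrays with the same replicate number correlated at -0.25 to 0.46 after removing group means, above 0.1 in 3 of 6 pairs of groups, so the numbers were not taken to pair the samples, although replicate 1 arrays were brighter than replicate 2 arrays in every group. With the replicate number as a block, 2031 genes were called on day 9, 102 on day 7 and 0 as a difference of effects, 3 of the 9 on day 9 (Dll3, Hes5 and Neurog2, the last at an adjusted p of 0.0414), and 2 of the 9 between days in knockout cultures (Neurog1 and Neurog2). As a random block (consensus correlation 0.18), 2472 were called on day 9, 320 on day 7 and 2874 between days in control cultures, with 4 of the 9 called on day 9 (Neurog2 at 0.0299 and Jag1 at 0.0473 besides Hes5 and Dll3), Notch1 called lower with days averaged (0.0448) and 2 between days in knockout cultures. Hes5, Dll3 and Neurog2 kept their direction in the comparisons that called them under quantile normalisation, median scaling, normexp and the deposited table. The array number and signals near background, as for Dll4, Neurog1 and the second Notch1 probe, limit the precision.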
